A study of Mus musculus with 6 samples.

Results

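Phosphodiesterases (PDEs) and adenylyl cyclases were examined as a group of 34 genes, comprising 24 PDE genes and 10 adenylyl cyclase genes among the 22623 genes counted. Members were every gene whose symbol is Pde followed by a digit and a lower-case letter, or Adcy followed by a number, and the 6 Pde6 genes were kept because they were counted. Pde4dip and Pde12, whose symbols do not have this form, were left out. At least 1 unique molecular identifier (UMI, a counted RNA molecule) was found for 33 members, of which 19 had 1003 to 43097 UMIs in all nuclei, Pde1c had 532 and the rest had at most 285. Pde2a had 0 UMIs in all 6 libraries, which at 3 counts per library allows a level of up to 0.169 to 0.377 CPM (UMIs per 1000000 UMIs of a library) over all nuclei.

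The 6 libraries hold RNA counts of single nuclei from whole tumors that TC1, a mouse epithelial lung tumor line, formed under the skin. All host mice were MCT2 loxP/loxP; Cre+ on a C57BL/6 background, so that both groups carried the floxed allele and the tamoxifen-inducible Cre, and at 8 weeks of age received for 5 days either tamoxifen (KO, 3 libraries) or the vehicle alone (CO, 3 libraries). TC1 cells were injected 2 days later and tumors were taken 24 days after the injection. The floxed genotype is that of the host, no edit of the TC1 line is given, and the promoter that drives Cre is not named in the sources used here. The labels give the tissue as lung although the tumors grew under the skin, and they do not say how many animals a library holds, so p-values measure the spread between libraries. Transcripts of the targeted gene Slc16a7, which encodes monocarboxylate transporter 2 (MCT2), were at 98.8, 90.3 and 181 CPM in macrophage nuclei of the CO libraries and at 135, 142 and 160.4 CPM in the libraries labelled KO. Over all nuclei it differed by 0.44 on the log2 scale (SE 0.54, edgeR adjusted p 0.736), so as a group the libraries labelled KO were not lower, although KO replicate 2 was the lowest of all. The values over all nuclei were 8.57, 11.8 and 22.01 CPM in CO and 16.4, 7.25 and 31.5 CPM in KO. Sums over all nuclei include tumor nuclei, where Slc16a7 differed by 0.99 on the log2 scale (SE 0.50, edgeR adjusted p 0.608). Which part of Slc16a7 is flanked by loxP is not given in the sources used here. Counts from the 3′ end therefore cannot show whether the deletion took place in the host. Every direction below is for this reason one between labels.

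Cyclic AMP is made from ATP by adenylyl cyclases, most of which sit in the membrane and respond to stimulatory and inhibitory G proteins, while Adcy10 is a soluble enzyme that responds to bicarbonate. PDEs break cyclic AMP and cyclic GMP down, and their families differ in substrate and in regulation. Pde1 enzymes are stimulated by calcium and calmodulin, Pde3 enzymes are inhibited by cyclic GMP, Pde4, Pde7 and Pde8 enzymes prefer cyclic AMP, Pde5, Pde6 and Pde9 enzymes prefer cyclic GMP, and Pde10 and Pde11 enzymes accept both. Pde4 enzymes are well known in immune cells, where their inhibition dampens inflammatory responses, and Pde3b is known in adipocytes, where insulin activates it to restrain lipolysis. Pde6d, Pde6g and Pde6h encode no catalytic subunit. Pde6d encodes a binding protein for prenylated proteins, and Pde6g and Pde6h encode inhibitory subunits of the photoreceptor enzyme.

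Nuclei were sorted into classes by summed counts of marker genes, none of which is a member. Of 18014 nuclei that passed the filters, 8494 were classed as tumor nuclei, 4210 as macrophage nuclei, 340 as T/NK nuclei and 48 as adipocyte nuclei. Another 250 met the rule of more than 1 class, 208 carried markers of other cell types and 4464 were left unclassed. At the limit of the rule lay 714 tumor, 673 macrophage, 41 T/NK and 5 adipocyte nuclei. Tumor nuclei held between 6082062 and 13447228 UMIs per library, macrophage nuclei between 379912 and 1508790, T/NK nuclei between 44892 and 94189 and adipocyte nuclei only between 4983 and 11115. Own-marker levels were set by this rule and are a description of the classes, not a check of them. Macrophage markers were at 4736 to 5779 CPM in macrophage nuclei against 262 to 358 CPM in tumor nuclei, and T/NK markers were at 6207 to 9043 CPM in T/NK nuclei against 13.7 to 60.3 CPM in tumor nuclei. Most of the macrophage-marker level in tumor nuclei was Mertk, at 247 CPM pooled over libraries against 585 CPM in macrophage nuclei. The next macrophage marker in tumor nuclei was P2ry6 at 11.1 CPM. Adipocyte markers were at 8299.9 to 12935 CPM in adipocyte nuclei, with at least 7 of 9 detected in each library. Of the tumor-marker UMIs in tumor nuclei 92.2% came from Mecom, Hmga2 and Slit2, and the list as a whole does not separate every host stromal cell from TC1 cells. The summed tumor markers were also present in the other classes, at 5.79 to 13.3% of their tumor-nucleus level in macrophage nuclei and at 4.26 to 17.5% in T/NK nuclei, with the highest value of both in KO replicate 2 and the next in KO replicate 3. These percentages describe the list and not tumor RNA alone. Pooled over libraries, Rnf150 was at 219 CPM in macrophage and 34.8 CPM in tumor nuclei, and Frmd5 at 251 CPM in T/NK and 165 CPM in tumor nuclei. Crabp1 and Igf2bp3 were not lower in either class, and the rest of the list was lower in both. Across libraries 61 barcode sequences occurred in more than 1 library. They made up 0.553% of tumor, 0.333% of macrophage and 0.294% of T/NK nuclei, but all 48 adipocyte nuclei. These 48 held only 12 distinct barcode sequences, 9 of which occurred in all 6 libraries, and a given sequence had nearly the same UMI total in each library that held it, with the highest 1.14 to 1.34 times the lowest. The adipocyte values of the 6 libraries are therefore not independent, and without shared barcodes the class holds 0 nuclei.

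Sequences upstream of the start site are shown for Pde7b, Adcy7 and Pde4b, 3 members that were higher in macrophage than in tumor nuclei, from the RefSeq promoter table (GRCm38.p6). Each is 250 bases long and written 5′ to 3′ on the strand of the gene, with capitals marking the cyclic AMP response half-site TGACG on either strand (CGTCA when read on the other). The table lists 1 start for Pde7b, 3 for Adcy7 and 4 for Pde4b, and for Adcy7 and Pde4b the first window with a half-site was taken, so that its presence there is no finding. All 3 windows lie inside the longer gene span of GENCODE vM21, upstream of a RefSeq start.
Pde7b (chr10:20548329-20548578, minus strand): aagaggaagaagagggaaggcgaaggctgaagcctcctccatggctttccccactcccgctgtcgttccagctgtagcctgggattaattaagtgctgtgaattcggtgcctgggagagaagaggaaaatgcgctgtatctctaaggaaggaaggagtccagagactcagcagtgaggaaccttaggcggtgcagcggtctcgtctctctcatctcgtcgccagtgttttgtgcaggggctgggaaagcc
Adcy7 (chr8:88282742-88282991, plus strand): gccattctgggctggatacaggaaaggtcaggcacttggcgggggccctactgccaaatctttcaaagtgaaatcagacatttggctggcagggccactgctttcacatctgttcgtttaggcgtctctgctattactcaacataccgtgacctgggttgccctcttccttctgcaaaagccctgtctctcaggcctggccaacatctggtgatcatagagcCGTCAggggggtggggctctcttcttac
Pde4b (chr4:102421305-102421554, plus strand): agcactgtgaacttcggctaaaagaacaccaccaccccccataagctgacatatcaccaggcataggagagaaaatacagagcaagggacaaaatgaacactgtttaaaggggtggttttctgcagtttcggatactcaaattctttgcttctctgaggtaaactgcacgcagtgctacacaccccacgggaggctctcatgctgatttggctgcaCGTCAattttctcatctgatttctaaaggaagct
The half-site occurred in 17.8% of all 32851 upstream windows and in 14.3% of the 49 windows of members, which belonged to 7 of the 25 member genes in the table (Adcy7, Adcy9, Pde1a, Pde4a, Pde4b, Pde6h and Pde8a). The full element TGACGTCA, which contains the half-site, occurred in 1.55% of all windows and in 0 of the 49. Adcy6, Adcy8, Pde3a, Pde3b, Pde6a, Pde6c, Pde6g, Pde7a and Pde9a were not matched.

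In tumor nuclei, PDE transcripts were spread over several isoforms, and 23 of the 24 PDE genes had at least 1 UMI. Pde3b (chr7:114415281-114539251, plus strand, 15 merged exons in GENCODE vM21, GRCm38) took 24.4% of all PDE UMIs of the class, Pde1a 18.3%, Pde7a 15.5% and Pde10a 13.5%. Levels are unscaled CPM, that is UMIs per 1000000 UMIs of the class in a library, and are listed for replicates 1, 2 and 3 of each group. Pde3b, the cyclic GMP-inhibited isoform, was at 415, 475 and 613 CPM in CO and at 358, 891 and 672 CPM in KO. Pde1a, a calcium-calmodulin dependent isoform, was at 297, 366 and 648 CPM in CO and at 268, 619 and 447 CPM in KO. Both were lowest in KO replicate 1, and Pde1a exceeded Pde3b only in CO replicate 3.

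Pde7a, a high-affinity cyclic AMP phosphodiesterase, was steadier over the tumor sums, at 299, 335 and 457 CPM in CO and at 329.8, 382 and 399.9 CPM in KO. Pde10a, which accepts both cyclic nucleotides and is best known from striatal neurons, was at 191, 309 and 498 CPM in CO and at 203, 442 and 322 CPM in KO. The groups overlapped for all 4 of these genes. Next in UMIs came Pde7b (64.7 to 353 CPM), Pde4a (119 to 161 CPM), Pde4d (87.8 to 156 CPM) and the prenyl-binding Pde6d (95.3 to 131 CPM). Summed over all PDE genes, tumor nuclei held 2386 ± 643 CPM (SD, n = 6 libraries). The sums were 1727, 2076 and 3118 CPM in CO and 1701, 3081 and 2614 CPM in KO. CO replicate 3 and KO replicates 2 and 3 thus stood above the other libraries, across both labels. The same libraries had the lowest median mitochondrial percentages of kept nuclei, which were 6.80, 4.14 and 1.34% in CO and 6.28, 3.85 and 0.896% in KO. A link between the sums and these percentages was not tested.

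Nuclear RNA is rich in introns, and long genes can give more counts, so levels of different genes were compared per kilobase of gene span. This scale assumes that intronic reads were counted, which is not given in the sources used here. Levels per kilobase of exon were not computed and can order genes otherwise. Pde1a has 6.01 kb of merged exons in a span of 295 kb, and Pde3b 9.11 kb in 124 kb. On this scale Pde3b led in tumor nuclei with 4.60 ± 1.59 CPM per kb (SD, n = 6 libraries), followed by Pde7a with 4.16 ± 0.649 CPM per kb. Their ranges over libraries, 2.89 to 7.19 and 3.39 to 5.18 CPM per kb, overlapped, so the order of this pair was not resolved, and Pde3b also overlapped the next pair. Pde4a (3.00 ± 0.318 CPM per kb) and Pde6d (2.896 ± 0.342 CPM per kb) came next and overlapped each other. Pde1a followed with 1.49 ± 0.548 CPM per kb and Pde10a, a gene spanning 461 kb, with 0.710 ± 0.268 CPM per kb. Of the 4 isoforms with the most UMIs, Pde3b and Pde7a thus also led per kilobase of span, while Pde1a and Pde10a fell behind Pde4a and Pde6d.

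Among adenylyl cyclases, Adcy8 (chr15:64697084-64922296, minus strand, 18 merged exons) had the most UMIs in tumor nuclei of all 6 libraries. This calcium-calmodulin stimulated cyclase, best known from neurons, was at 149, 181 and 269 CPM in CO and at 172, 405 and 233 CPM in KO, and took 46.3% of the adenylyl cyclase UMIs of the class. Adcy7, a cyclase of blood-derived cells, was at 80.3, 90.4 and 79.7 CPM in CO and at 93.5, 70.3 and 68.6 CPM in KO. Adcy9, a widely expressed cyclase, was at 49.6, 57.0 and 77.3 CPM in CO and at 44.6, 98.7 and 83.0 CPM in KO. Adcy3 (39.1 to 51.1 CPM) varied little, and the soluble Adcy10 varied most of the cyclases above 10 CPM, with 33.2, 34.0 and 34.4 CPM in CO and 57.4, 12.9 and 18.9 CPM in KO. Per kilobase, Adcy7 (1.40 ± 0.176 CPM per kb), Adcy6 (1.38 ± 0.198) and Adcy8 (1.04 ± 0.418) overlapped in their ranges over the 6 libraries (SD, n = 6), so that no single cyclase led on that scale.

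**Figure D1:**
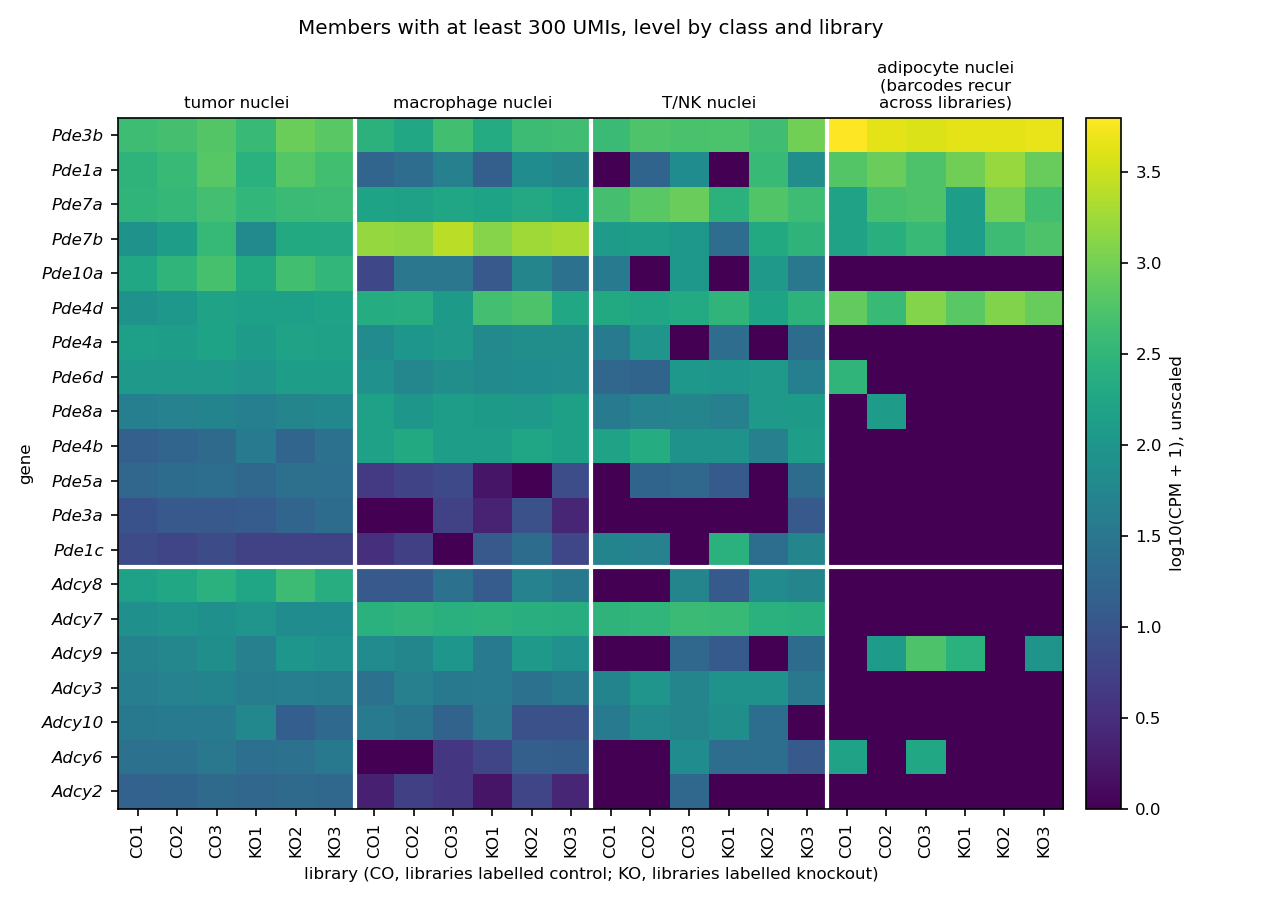
Level of the 20 members with at least 300 UMIs, as log10(CPM + 1) on a color scale, by nuclear class and library (columns) and gene (rows, PDEs above the white line and adenylyl cyclases below it). Pde7b stands out in macrophage nuclei, where it lies between 1273 and 2525 CPM, and Pde3b in adipocyte nuclei, where it lies between 3936 and 6271 CPM in 6 columns that rest on the same 12 recurring barcodes.

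Macrophage nuclei were dominated by a single isoform. Pde7b (chr10:20398004-20725078, minus strand, 16 merged exons), a cyclic AMP-specific enzyme, took 56.8% of the PDE UMIs (49.7 to 65.9% by library) and led in all 6 libraries. Its level was 1581, 1467 and 2525 CPM in CO and 1273, 1795 and 2025 CPM in KO, and the groups overlapped. Pde3b was at 278, 186 and 439 CPM in CO and at 214, 405 and 429 CPM in KO. Pde4d, a cyclic AMP-specific Pde4 isoform, was at 221, 235 and 117 CPM in CO and at 455, 537 and 186 CPM in KO, so that KO replicates 1 and 2 stood above all other libraries. Pde7a was level throughout, at 161, 149 and 167 CPM in CO and at 156, 197 and 159 CPM in KO. Per kilobase, Pde7b had 5.43 ± 1.37 CPM per kb (SD, n = 6), which lay above Pde3b (2.62 ± 0.914) and Pde7a (1.87 ± 0.193) with no overlap of its range of 3.89 to 7.72 CPM per kb with theirs.

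Adcy7 took 63.1% of the adenylyl cyclase UMIs of macrophage nuclei and led in all 6 libraries. It was at 263, 289 and 260.0 CPM in CO and at 277, 245 and 232 CPM in KO, and per kilobase (4.53 ± 0.364 CPM per kb, SD, n = 6) it lay far above Adcy9 (0.566 ± 0.216) and Adcy3 (0.409 ± 0.0828). Adcy9 was at 67.8, 53.5 and 98.6 CPM in CO and at 35.8, 113 and 82.5 CPM in KO, a wider spread than that of Adcy7 or Adcy3. Adcy3 was at 25.3, 43.5 and 32.9 CPM in CO and at 35.8, 26.3 and 33.6 CPM in KO. Summed over members, macrophage nuclei held 3115 ± 538 CPM of PDE and 425 ± 23.7 CPM of adenylyl cyclase transcripts (SD, n = 6 libraries).

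In T/NK nuclei, Pde7a and Pde3b were first by UMIs, Pde7a in 4 libraries and Pde3b in 2. Pde3b was at 391, 559 and 501 CPM in CO and at 533, 423 and 987 CPM in KO, from 248 UMIs in all. Pde7a, known from T cells, was at 476, 671 and 847 CPM in CO and at 272, 579 and 414 CPM in KO, from 209 UMIs. The next isoforms were Pde4d (156 to 304 CPM, 97 UMIs) and Pde7b (21.7 to 297 CPM, 60 UMIs). Pde7a at 6.16 ± 2.29 CPM per kb and Pde3b at 4.56 ± 1.74 CPM per kb (SD, n = 6) overlapped in their ranges. Adcy7 took 64.6% of the 198 adenylyl cyclase UMIs (exact binomial 95% interval 57.6 to 71.3%, which covers counting error only). It was at 289, 319 and 380.4 CPM in CO and at 369.6, 267 and 244 CPM in KO, and it was first in all 6 libraries. Adcy3 (27 UMIs) ranged from 31.9 to 95.8 CPM and Adcy10 (17 UMIs) from 0 to 76.1 CPM, values that rest on at most 8 UMIs in any library.

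Adipocyte nuclei were few, between 5 and 12 per library, and all came from the 12 barcode sequences that recur across libraries, so they were described and not tested. The 6 values of a gene rest on the same barcodes and are not 6 independent samples, so no error is given for them. Pde3b took 65.4% of the 315 PDE UMIs of these nuclei. Its level was 6271, 4352 and 3936 CPM in CO and 4418, 4415 and 4678 CPM in KO. In no other class did a library reach this level, the nearest being 987 CPM in T/NK nuclei. Pde1a (537 to 1605 CPM, 38 UMIs), Pde4d (363 to 1252 CPM, 35 UMIs) and Pde7a (134 to 1003 CPM, 19 UMIs) followed. Per kilobase, Pde3b averaged 37.7 CPM per kb over the libraries against 5.22 CPM per kb for Pde7a. Only 13 UMIs of adenylyl cyclases were counted, 7 of Adcy9, 4 of Adcy5 and 2 of Adcy6, too few to order them.

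**Figure D2:**
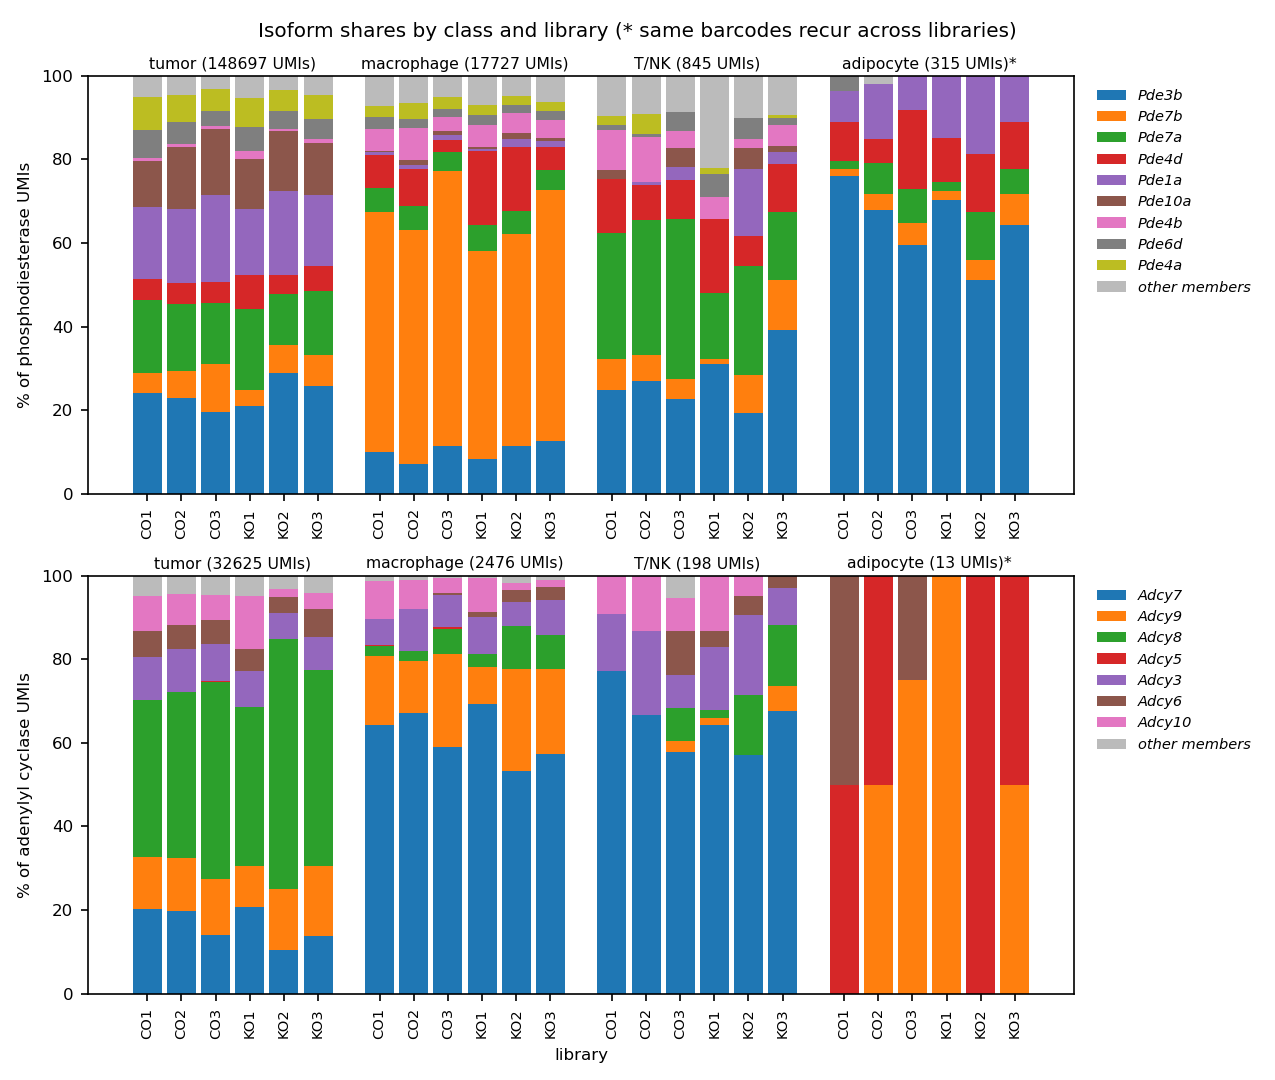
Share of each isoform in the PDE UMIs (top) and the adenylyl cyclase UMIs (bottom) of each library, as stacked bars in percent by nuclear class, with the number of UMIs of the class in brackets and an asterisk where the same barcodes recur across libraries. The bars show Pde7b with 49.7 to 65.9% of macrophage PDE UMIs and Adcy7 with 53.1 to 69.2% of macrophage adenylyl cyclase UMIs, whereas tumor bars are divided among several PDE genes and led by Adcy8 among cyclases.

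Isoform choice between classes was tested on summed counts with library as a block, in the edgeR quasi-likelihood test over all genes. Calls required an absolute log2 fold change of 0.58 or more together with an adjusted p of 0.05 or less. Between macrophage and tumor nuclei 23 members were tested, of which 8 were called higher in macrophage nuclei and 11 lower, while 25.6% of all 11743 tested genes were called higher and 26.2% lower. The median log2 fold change was −0.54 over the tested members and 0.00 over all genes. In all, 19 of the 23 tested members were called between these classes, beside 6085 of all 11743 genes tested.

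Of the members higher in macrophage nuclei, Pde1b, a calcium-calmodulin dependent isoform known from macrophages and neurons, had the largest difference, 4.18 on the log2 scale (SE 0.23, edgeR adjusted p 1.67e-09). It was at 16.1, 16.7 and 23.9 CPM in macrophage nuclei of CO and at 15.2, 21.1 and 32.9 CPM in KO, against 0.566 to 2.22 CPM in tumor nuclei. Pde7b followed with 3.62 (SE 0.18, edgeR adjusted p 5.50e-10). Pde4b, the Pde4 isoform tied to cytokine production in myeloid cells, was at 148, 204 and 134 CPM in CO and at 135, 168 and 144 CPM in KO. Its tumor level was 13.4 to 34.5 CPM, which makes 2.99 on the log2 scale (SE 0.19, edgeR adjusted p 7.38e-09). Pde6h was higher by 2.62 (SE 0.24) and the cyclic AMP-specific Pde8b by 1.98 (SE 0.34) on the log2 scale, at levels of 2.63 to 17.2 and 2.63 to 16.7 CPM in macrophage nuclei. Adcy7 was higher by 1.76 (SE 0.08, edgeR adjusted p 3.19e-10), and its lowest macrophage level of 232 CPM exceeded its highest tumor level of 93.5 CPM. Pde8a (1.41, SE 0.10) and Pde4d (1.12, SE 0.23) completed the 8.

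Among members lower in macrophage nuclei, Pde10a, Pde1a and Adcy8 had the largest differences, with log2 fold changes of −3.68 (SE 0.17), −3.65 (SE 0.18) and −3.36 (SE 0.17) and edgeR adjusted p-values of 2.29e-10, 3.34e-10 and 4.22e-10. In macrophage nuclei Pde10a was at 5.74, 30.9 and 31.4 CPM in CO and at 10.6, 52.6 and 26.0 CPM in KO. Adcy8 was at 10.3, 10.9 and 25.4 CPM in CO and at 11.9, 47.4 and 32.9 CPM in KO. These levels were 3.00 to 11.9% of the tumor level of the same library for Pde10a, 4.95 to 11.8% for Pde1a and 6.01 to 14.1% for Adcy8, beside 5.79 to 13.3% for the summed tumor markers. With only macrophage nuclei that held 0 tumor-marker counts (1336 of 4210), log2 fold changes reached −5.08 for Pde10a, −5.09 for Pde1a and −3.69 for Adcy8. This filter itself selects against genes that are high in tumor nuclei, so the larger differences are a description. KO replicate 2, with 11 such nuclei, was left out of that fit. Adcy2 (−2.86, SE 0.32), Pde3a (−2.83, SE 0.45), the cyclic GMP-specific Pde5a (−2.35, SE 0.32) and Adcy6 (−2.35, SE 0.39) were also lower. Smaller differences were called for Pde7a (−1.08, SE 0.09), Pde4a (−0.77, SE 0.11), Pde3b (−0.75, SE 0.13) and Pde6d (−0.66, SE 0.10). Adcy3, Adcy9, Adcy10 and Pde1c were not called, with log2 fold changes between −0.54 and 0.35.

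Between T/NK and tumor nuclei 20 members were tested, of which 3 were called higher in T/NK nuclei and 8 lower, against 11.3 and 21.6% of all 11186 genes tested. The median log2 fold change was −0.63 over the tested members and −0.30 over all genes. Pde1c, a calcium-calmodulin dependent isoform, was higher by 3.40 (SE 0.49, edgeR adjusted p 7.22e-11), but 24 of its 36 UMIs lay in KO replicate 1. It was at 51.0, 47.9 and 0 CPM in CO and at 261, 22.3 and 53.1 CPM in KO. Without KO replicate 1 its log2 fold change was 2.48 (edgeR adjusted p 0.000667) and it was still called. Pde4b was higher by 2.25 (SE 0.32, edgeR adjusted p 3.74e-11), with 153, 224 and 86.5 CPM in CO and 87.0, 44.6 and 127 CPM in KO. Adcy7 was higher by 1.67 (SE 0.20, edgeR adjusted p 1.00e-15). Pde10a (−3.30, SE 0.30), Adcy8 (−3.24, SE 0.33), Pde1a (−2.99, SE 0.27) and Pde4a (−2.54, SE 0.34) were lower, as was Adcy9 (−3.05, SE 0.53), which had 4 UMIs in all T/NK nuclei. Adcy2 (−3.08, SE 1.06) and Pde3a (−2.74, SE 1.13) rest on 1 UMI each in T/NK nuclei, so that the size of either depends on the prior count of the fit, and the call of Pde3a was lost under 8 alternatives. Pde6d (−1.12, SE 0.29) was the last of the 8 called lower. In KO replicate 2, where tumor markers were highest in T/NK nuclei, Pde1a reached 57.5% of its tumor level, from 16 UMIs.

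Between T/NK and macrophage nuclei 11 members were tested, 3 called higher in T/NK nuclei and 3 lower, against 12.7 and 17% of all 5525 genes tested. Pde7a was higher by 1.63 (SE 0.18, edgeR adjusted p 1.58e-08), Adcy3 by 0.95 (SE 0.34, edgeR adjusted p 0.0337) and Pde3b by 0.85 (SE 0.18, edgeR adjusted p 0.000496). Pde7b was lower by 3.67 on the log2 scale (log2 fold change −3.67, SE 0.24, edgeR adjusted p 8.30e-13), the largest difference of a member between these classes. Pde4a (−1.44, SE 0.42) and Pde8a (−0.91, SE 0.29) were also lower, and the call of Adcy3 was lost under 7 alternatives, that of Pde4a under 2 and that of Pde8a under 1. Adcy7 was not called, with a log2 fold change of 0.23 and a 95% interval of −0.09 to 0.55.

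**Figure D3:**
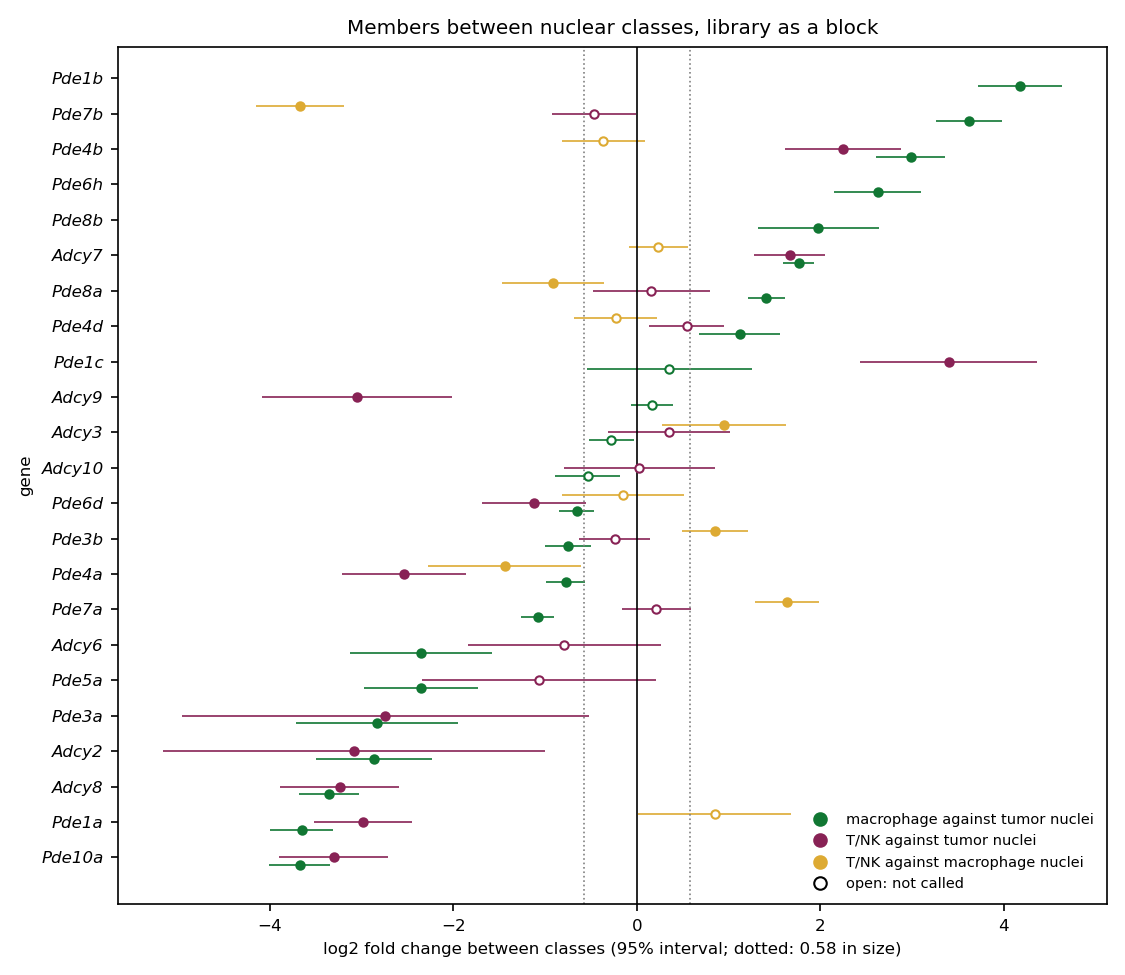
Log2 fold changes of members between nuclear classes (horizontal axis, with 95% intervals) for the 23 members tested between macrophage and tumor nuclei (vertical axis), with filled points for called members. Pde1b at 4.18 and Pde7b at 3.62 mark the macrophage end and Pde10a at −3.68 the tumor end, while Pde7a is lower in macrophage than in tumor nuclei (−1.08) and not called between T/NK and tumor nuclei (0.21).

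Members also varied among tumor nuclei of the same library. To compare nuclei at equal depth, each tumor nucleus was thinned to 2000 UMIs, and 76 to 397 nuclei per library were too shallow and left out. The variance over the mean of UMIs per nucleus, which is 1 for counts that scatter at random, was 6.24 for Pde10a (4.85 to 9.39 over the 6 libraries), 3.77 for Pde7b (2.38 to 4.50) and 2.65 for Pde1a (1.84 to 3.87). It was 1.66 for Pde4d, 1.41 for Adcy8, 1.44 for Pde3b, 1.14 for Pde7a and 1.09 for Pde4a. For genes that vary between nuclei this ratio also rises with the mean. Mean UMIs per nucleus were 0.820 for Pde10a, 0.732 for Pde7a, 0.424 for Pde7b and 0.289 for Pde4a. Pde10a, Pde7b and Pde1a transcripts were thus concentrated in some tumor nuclei, whereas Pde7a and Pde4a lay close to random scatter at this depth.

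Nuclei with at least 3 Pde10a UMIs (503 in all) were compared with those with 0 (5486). Mean Pde7b UMIs were 4.58 to 17.6 times as high in the former over the 6 libraries (median 11.7), Pde4d 2.53 to 4.81 times (median 3.64) and Pde1a 2.31 to 4.57 times (median 3.13). Adcy8 went the other way, at 0.219 to 0.535 times (median 0.438), as did Pde10a among 212 nuclei with at least 3 Adcy8 UMIs (0.0699 to 0.62 times, median 0.339). Pde7a (0.82 to 1.09 times) and the tumor marker Mecom (0.894 to 1.18 times) were close to even. Mecom was among the markers that defined the class, so its even level was in part set by the class rule. Nuclei of 1 library share its free RNA, and the thresholds were set after these counts were seen, so these ratios are a description. The study lists Pde10a among the leading markers of a cluster that it named fibroblasts. It lists Adcy8 among those of a cluster named mesenchymal stromal cells in KO. The tumor class used here was not divided by those clusters.

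**Figure D4:**
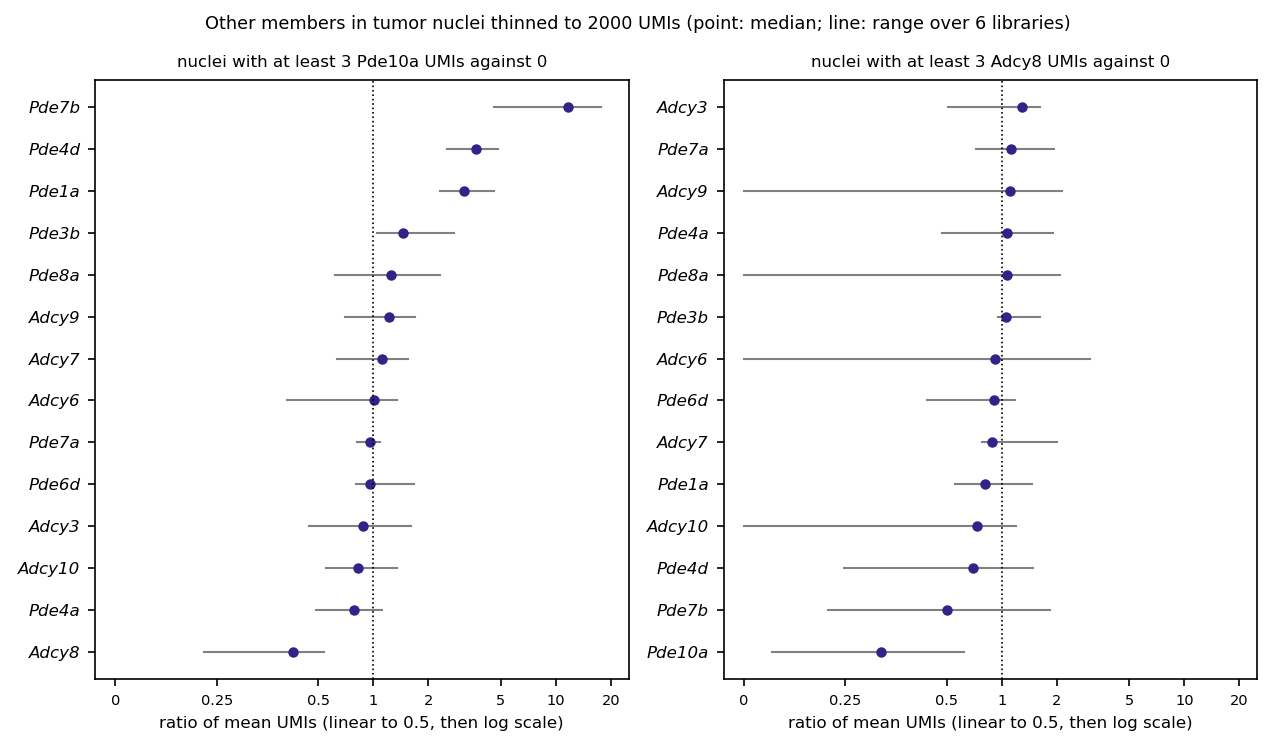
Ratio of mean UMIs of other members between tumor nuclei with at least 3 UMIs and with 0 UMIs of Pde10a (left) or Adcy8 (right), at 2000 UMIs per nucleus. Points are medians and lines the range over 6 libraries, with the axis linear up to 0.5 and logarithmic above it, and Pde7b, Pde4d and Pde1a lie above 1 in every library on the left while Adcy8 lies below 1.

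The study asked how tumors differ between the labels KO and CO, and in the edgeR test between libraries no member passed the threshold. With single nuclei as the unit and its own clusters, the study listed Pde7b among the leading genes of cycling mesenchymal stromal cells. It listed Adcy8 among those of interferon-responsive mesenchymal stromal cells. Those single-nucleus tests differ from the present one in unit and in the grouping of nuclei. The study also ran a pseudobulk DESeq2 test per cell type, with biological replicates as the unit. It reported genes that passed its thresholds in several cell types. Whether members were among them is not given in the text used here. The edgeR test called 0 of 28 members tested in all nuclei, 0 of 27 in tumor nuclei, 0 of 18 in macrophage nuclei and 0 of 4 in T/NK nuclei, and the percentage called among all genes was likewise 0 in each. At an unadjusted p under 0.05 there were 1, 2, 1 and 0 members and 648, 828, 550 and 81 of all genes, respectively. DESeq2 called 0 members in each and 13, 31, 8 and 0 of all genes. The self-test on simulated counts recovered 73.5% of 2-fold changes in tumor nuclei and 41.1% in macrophage nuclei. Its counts had a smaller spread between libraries than the fits. In the fits, the common spread beyond counting error was 27.6% in tumor and 26.0% in macrophage nuclei. These rates therefore overstate the recovery in these data. Fewer cells of a type and less RNA per cell cannot be told apart in the sums over all nuclei.

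The largest KO to CO differences in tumor nuclei were those of Pde3a, Pde4b and Adcy4. Pde3a, a cyclic GMP-inhibited isoform best known from heart and platelets, was at 7.93, 10.6 and 10.7 CPM in CO (9.73 ± 1.56, SD, n = 3) and at 11.8, 16.1 and 21.1 CPM in KO (16.3 ± 4.68). Every library labelled KO lay above every CO library, by 0.83 on the log2 scale in the fit (SE 0.27, edgeR adjusted p 0.608). Pde4b was at 13.4, 16.6 and 19.2 CPM in CO and at 34.5, 16.5 and 25.5 CPM in KO, so that the groups overlapped, and differed by 0.70 on the log2 scale (SE 0.27, edgeR adjusted p 0.608). Adcy4 was at 3.80, 3.05 and 5.92 CPM in CO and at 3.23, 1.78 and 2.97 CPM in KO (log2 fold change −0.59, SE 0.36). Pde1c was the only other tested member without overlap, at 6.39, 5.20 and 6.58 CPM in CO and at 4.58, 4.68 and 4.45 CPM in KO (log2 fold change −0.32, SE 0.24). Thus 2 of 27 tested members did not overlap between the labels, beside 12.6% of all genes tested in tumor nuclei. In all nuclei, macrophage nuclei and T/NK nuclei no tested member was free of overlap, beside 11.2, 11.8 and 12.1% of all genes. Among members too low to be tested there, Pde6a and Pde6g were lower without overlap in tumor nuclei (25 and 22 UMIs), Pde6g also over all nuclei (40 UMIs), and Adcy6 and Pde1c were higher without overlap in macrophage nuclei (31 and 38 UMIs). The share without overlap among all untested genes was not counted, so these cases describe few UMIs and are no result between the labels.

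In macrophage nuclei the largest differences were those of Pde4d, Adcy8 and Pde1a. Pde4d had a mean of 191 ± 64.6 CPM (SD, n = 3) under the label CO against 393 ± 184 CPM (n = 3) under KO. The difference was 1.06 on the log2 scale (SE 0.40, unadjusted p 0.0262, edgeR adjusted p 0.809), and KO replicate 3 at 186 CPM lay within the CO range. For Adcy8 the means were 15.5 ± 8.55 and 30.7 ± 17.8 CPM, which differed by 0.95 on the log2 scale (SE 0.57). For Pde1a they were 27.0 ± 14.4 and 44.8 ± 28.4 CPM, which differed by 0.70 (SE 0.60). Both are members with high tumor levels, and the summed tumor markers in macrophage nuclei were at 736, 832 and 1478 CPM in CO and at 839, 3330 and 2583 CPM in KO, highest in the same libraries as Adcy8 and Pde1a. Their part in the differences of Adcy8 and Pde1a was not tested. In T/NK nuclei the mean of Pde7a was 665 ± 186 CPM for CO against 422 ± 154 CPM for KO (log2 fold change −0.72, SE 0.35, edgeR adjusted p 0.854). Pde3b (0.40, SE 0.36) and Pde4d (0.38, SE 0.36) followed there.

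Over all nuclei Pde6a, a catalytic subunit of the photoreceptor enzyme with 59 UMIs, had the largest value (−1.07 on the log2 scale, SE 0.68). It was followed by Pde3a (0.77, SE 0.31) and Pde1b (0.68, SE 0.51, at 7.91 CPM in KO replicate 3 and 2.01 to 3.90 CPM elsewhere). Among tested members the log2 fold change was above 0 for 20 of 28 in all nuclei, 18 of 27 in tumor nuclei and 9 of 18 in macrophage nuclei. Their medians were 0.14, 0.13 and 0.00, beside −0.02, −0.02 and 0.01 over all genes.

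**Figure D5:**
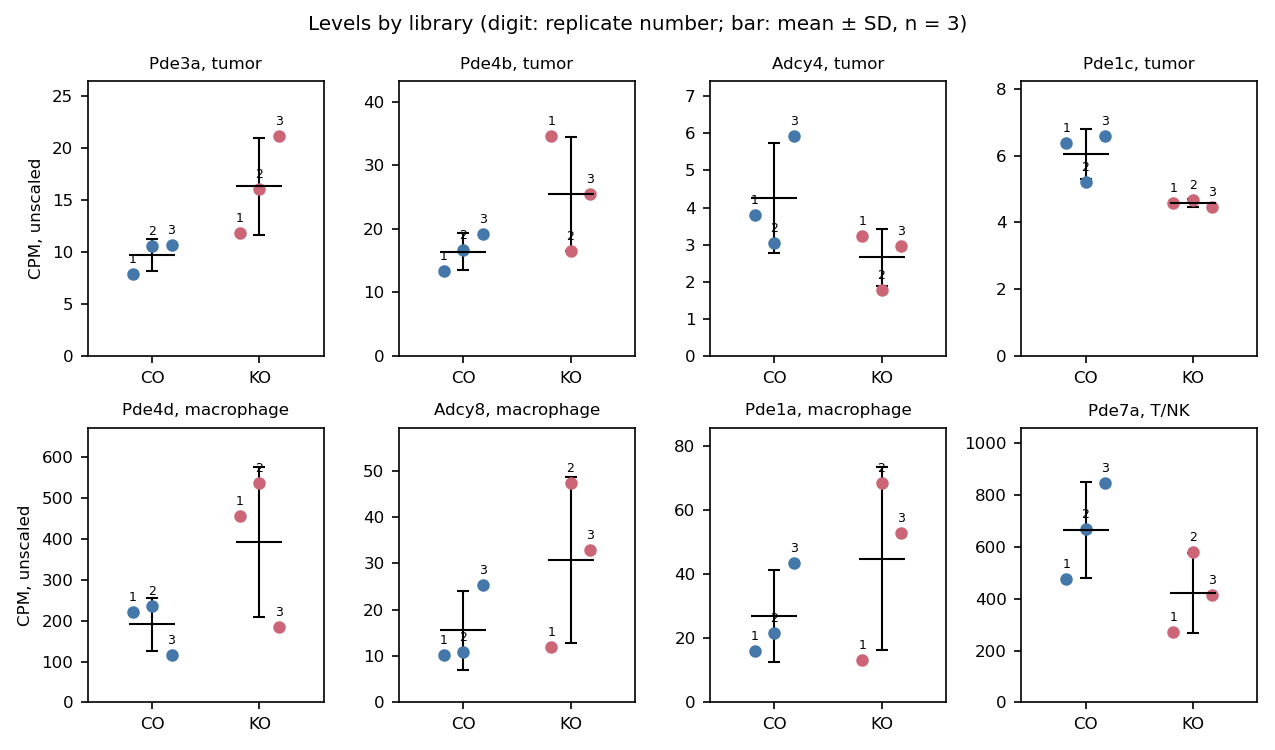
Level of 8 members in the named nuclear class (vertical axis, unscaled CPM from 0) in the libraries labelled CO and KO, with the replicate number above each point and bars for the mean ± SD of 3 libraries. Pde3a lies between 11.8 and 21.1 CPM in the KO libraries, above all CO libraries, Pde1c lies below them, and the groups overlap in the other 6 panels.

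Leaving out KO replicate 1 changed the picture for the whole transcriptome. Without it, edgeR called 19.3% of all 13123 genes in tumor nuclei and 14.4% of 9497 in macrophage nuclei, and 2 of 27 and 4 of 19 tested members. In tumor nuclei these were Pde3a (1.03, SE 0.21, edgeR adjusted p 0.0296) and Adcy10 (−1.01, SE 0.18, edgeR adjusted p 0.028). The adjusted p of Pde3a reached from 0.0296 to 0.994 over all alternatives, and that of Adcy10 from 0.028 to 0.994. In macrophage nuclei the members called were Adcy10 (−1.80, SE 0.48), Pde1a (1.20, SE 0.35), Adcy8 (1.39, SE 0.41) and Adcy6 (3.87, SE 0.88), where the adjusted p over the alternatives reached from 0.0147 to 1.00. Pde1a, Adcy8 and Adcy6 were higher in tumor than in macrophage nuclei. In the KO replicates 2 and 3 that remained, tumor markers in macrophage nuclei were at 3330 and 2583 CPM, against 736 to 1478 CPM in CO. Their part in these calls was not tested. Adcy10 was at 57.4 CPM in tumor nuclei of KO replicate 1 and at 12.9 and 18.9 CPM in the other KO libraries, on opposite sides of the CO range of 33.2 to 34.4 CPM. Adcy10 and Adcy6 are named here after their values were seen.

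Whether the KO to CO change differed between macrophage and tumor nuclei was tested as an interaction. The edgeR test called 0 of 26 members, and 1 of all 12402 genes was called (0.00806%), DESeq2 called 0 members, and 3 members were under 0.05 before adjustment in edgeR. Adcy6 had the largest value, 3.63 on the log2 scale (SE 0.84, unadjusted p 0.000683, edgeR adjusted p 0.446). It had 0, 0 and 2 UMIs in CO macrophage nuclei and 8, 5 and 16 in KO, and its macrophage level was highest in KO replicates 2 and 3, where tumor markers were also highest. Pde1c (2.44, SE 0.75) and Pde4b (−0.79, SE 0.29) were the other 2.

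Genes that act with the members in cyclic nucleotide signaling were counted in 10 lists of 76 genes. Between macrophage and tumor nuclei 53 were tested, of which 14 were called higher and 19 lower in macrophage nuclei, beside 25.6 and 26.2% of all genes. All 5 tested receptors that couple to the stimulatory G protein were called, 4 higher in macrophage nuclei and 1 lower. Vipr1 (log2 fold change 4.90, SE 0.30) and Ptger4 (2.49, SE 0.27), receptors for vasoactive intestinal peptide and prostaglandin E2, were among the higher, and Vipr2 (−2.55, SE 0.33) was the lower. P2ry12, a purine receptor that couples to the inhibitory G protein, was higher by 6.18 (SE 0.17) and the cyclic AMP exporter Abcc4 by 1.45 (SE 0.11).

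Among protein kinase A genes, 1 of 9 was called higher and 3 lower in macrophage nuclei, with the inhibitor Pkib higher by 5.51 (SE 0.18) and the inhibitor Pkia lower (−3.13, SE 0.31). Both tested genes of the EPAC and Popeye list, the exchange factors Rapgef3 (−3.40, SE 0.34) and Rapgef4 (−2.17, SE 0.19), were lower. So were 4 of 5 tested genes of cyclic GMP synthesis and response, among them the guanylyl cyclase subunit Gucy1a2 (−4.22, SE 0.28) and the kinase Prkg2 (−2.09, SE 0.17). Genes of the anchoring proteins split evenly, with 3 of 10 higher, led by Akap10 (1.35, SE 0.08), and 3 lower, led by Akap5 (−1.71, SE 0.44). Of 4 tested G protein genes Gnai2 was higher (0.93, SE 0.11) and Gnao1 lower (−3.58, SE 0.17). Of 7 CREB factors 1 was higher and 2 lower, and of 8 CREB targets 2 were higher, Fos (1.92, SE 0.17) and Sik1 (1.70, SE 0.19), and 2 lower, Nr4a2 (−2.82, SE 0.20) and Nr4a1 (−1.22, SE 0.18). S1pr1 was the other tested receptor of the inhibitory list and was lower (−0.80, SE 0.31).

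Between T/NK and tumor nuclei 6 of 49 tested pathway genes were called higher and 13 lower, beside 11.3 and 21.6% of all genes, with the adenosine receptor Adora2a highest (5.82, SE 0.63). Between T/NK and macrophage nuclei 3 of 21 were higher and 6 lower, beside 12.7 and 17% of all genes, led by Crem (1.35, SE 0.32) and by Pkib (−4.27, SE 0.59). Between the labels KO and CO the edgeR test called 0 of 66 pathway genes in all nuclei, 0 of 59 in tumor nuclei, 0 of 37 in macrophage nuclei and 0 of 9 in T/NK nuclei.

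The remaining members were rare. Adcy5, Pde2a, Pde4c, Pde6c, Pde6g and Pde9a, with 0 to 49 UMIs in all nuclei, were tested in no comparison. Adcy1 (83 UMIs), Pde6a (59), Pde6b (188) and Pde11a (126) reached at most 4.05 CPM over all nuclei of any library. Pde5a (17.0 to 23.9 CPM in tumor nuclei), Adcy2 (14.8 to 19.6 CPM) and Adcy6 (23.4 to 32.7 CPM) were low but even over tumor nuclei of the 6 libraries.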

How the data were processed

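Nuclei of frozen subcutaneous TC1 tumors were profiled with 10x Genomics 3′ v3.1 chemistry in 3 CO and 3 KO libraries. The authors deposited raw UMI counts per gene and barcode for each library, made with Cell Ranger on GRCm38, with version 3.0.2 per the labels and 3.1.0 per the file headers, and analysed them in Seurat 5.2.1. Whether intronic reads were counted is not given in the sources used here. Selected samples received additional washes against ambient RNA, and which ones is likewise not given. Libraries held 13252572 to 22057084 UMIs, with at least 500 per barcode.

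Nuclei with 100 to 7500 genes and under 20% mitochondrial counts were kept, 18014 of 18865. Classes required at least 3 (tumor, macrophage) or 4 (T/NK, adipocyte) marker UMIs from at least 2 markers, at a rate of at least 20 per 10000 UMIs, or for tumor nuclei at least 0.5 times the 75th percentile of the library's tumor-marker rate. Classes other than macrophage needed a macrophage-marker rate under 10 per 10000. Nuclei that met the rule of several classes were left out, and no doublet caller was run. This rule was set after marker counts were seen. Members, markers and pathway lists were chosen with earlier results of these data known.

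Counts were summed per library and class and tested with edgeR 4.0.16 in R 4.3.3 (quasi-likelihood F-test, TMM, filterByExpr) with Benjamini-Hochberg adjustment over all genes tested. Class comparisons had library as a block. Classes needed 20 nuclei per library, and DESeq2 1.42.0 was an alternative. Intervals are 95% and cover counting error only for shares. Gene spans and merged exons are those of GENCODE vM21. Scripts were tested on simulated counts, which recovered 73.5% of 2-fold changes between KO and CO in tumor nuclei (12900 genes), 41.1% in macrophage nuclei (9426 genes) and 84% between macrophage and tumor nuclei (11654 genes). The simulated spread between libraries was smaller than that of the KO to CO fits and larger than that of the fit between macrophage and tumor nuclei.

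Values per library were given for the 4 PDEs and 3 adenylyl cyclases with the most UMIs in each class, for up to 6 members in each direction with the largest called class difference, and for the 3 members with the largest KO to CO difference in each class. Pathway genes were named only if called, at most 4 per list. Alternatives were RLE scaling, no filter on low counts, DESeq2, each library left out, a stricter filter on nuclei (at least 500 genes, under 5% mitochondrial counts), marker counts required 2 times as high, nuclei of other classes without tumor-marker counts, a replicate block and, added after the data were seen, nuclei without shared barcodes.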

Additional observations from a re-analysis of the deposited data

How the results depend on the processing

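Between KO and CO, the count of members called was 0 under each alternative except that it ranged from 0 to 2 in tumor nuclei and from 0 to 4 in macrophage nuclei when 1 library was left out, with the highest values without KO replicate 1. For the interaction, the count was 2 with no filter on low counts, 1 with only nuclei that held no tumor-marker counts and 0 to 1 with 1 library left out. Over all genes the same settings called 90 of 17901, 12 of 12368 and, without KO replicate 1, 189 of 12520. Pde4b (−0.95 and −1.63 on the log2 scale) and Adcy6 (3.47 with no filter) were the members called there. The cause was not tested. Members called between macrophage and tumor nuclei numbered 18 to 23 over the alternatives, between T/NK and tumor nuclei 8 to 14 and between T/NK and macrophage nuclei 4 to 9. For single members, 466 values kept their direction and their side of the threshold, 22 fell short of it, 3 passed it and 0 reversed. Calls were lost for Pde3a and Adcy2 between T/NK and tumor nuclei, for Pde4b there with only nuclei without tumor-marker counts (edgeR adjusted p 0.0519), and for Adcy3, Pde4a and Pde8a between T/NK and macrophage nuclei. Without tumor-marker counts some libraries held fewer than 20 nuclei and were left out. Whether replicate numbers pair the libraries was not settled. In tumor nuclei, deviations of same-numbered libraries correlated at 0.57, −0.28 and 0.38 for replicates 1, 2 and 3. With the replicate block 0 members were called in each KO to CO comparison. In tumor nuclei the block raised the genes under an unadjusted edgeR p of 0.05 from 828 to 1672. T/NK and adipocyte values are limited by depth, since 3 counts amount to 31.9 to 66.8 CPM in T/NK nuclei and 270 to 602 CPM in adipocyte nuclei. Leaving out shared barcodes removed all 48 adipocyte nuclei, so no adipocyte value could be had under that alternative.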

Other observations

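Nuclei with markers of other cell types were too few to be tested and showed further isoform patterns. In 114 nuclei with endothelial markers, Pde4d had 497 UMIs (1223 CPM) and Pde4b 180 UMIs (443 CPM), and Adcy4, a cyclase known from endothelium, had 17 UMIs (41.8 CPM), while tumor markers were at 8862 CPM in these nuclei. In 63 nuclei with skeletal muscle markers, Pde4d had 132 UMIs (732 CPM), Pde4b 98 (544 CPM), Adcy9 41 (227 CPM) and Adcy2 38 (211 CPM). Of the endothelial nuclei 9 had barcodes shared between libraries, and of the muscle nuclei 0. These values pool all libraries and have no replicate error.

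Tumor nuclei thinned to 2000 UMIs were compared between those with at least 3 Pde10a UMIs and those with 0. Over the 6 libraries Gpm6b was 4.40 to 28.5 times and Col12a1 3.32 to 12.1 times as high in the former. Mecom, a marker that defined the tumor class, was 0.894 to 1.18 times as high. Gpm6b and Col12a1 were picked after their values were seen. The study lists both beside Pde10a as markers of the cluster that it named fibroblasts.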
